A study of Rattus norvegicus with 9 samples.

Results

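Bone morphogenetic proteins (BMPs) and the secreted proteins that hold them in check were compared between the skull and the limb of the rat. The 10 genes were the ligands Bmp2, Bmp3, Bmp4, Bmp5, Bmp6 and Bmp7 and the extracellular antagonists or modulators Nog (noggin), Chrd (chordin), Grem1 (gremlin) and Bmper, taken by name. They were read through the 15 probe sets that name 1 of them alone, out of 31042 probe sets and 14217 genes measured. A probe set is a group of short probes on the array that together give 1 signal for a transcript. Bmp6 had 4 probe sets, Bmp2 and Bmp5 had 2 each, and the other genes had 1.

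There were 9 arrays of whole bone from male CD rats of about 110 g. The skull vault gave 4 of them (calvaria 1 to 4) and the ulna of the forelimb gave 5 (ulna 1 to 5). No animal carried a transgene or received a treatment according to the labels. Soft tissue was removed from the bones, and sutures or epiphyses as well, and each extract pooled several rats, so that a replicate is a pool. Groups of rats supplied both bones in the methods, but whether arrays of equal number share a group is not stated. A tissue field in the labels of ulna 1 to 4 names the calvaria, against their titles, which were followed here. A list of skeletal muscle genes separated the arrays by title. Its mean log2 signal was 3.09 to 3.60 on the calvaria arrays and 7.81 to 9.21 on the ulna arrays. Signals are MAS5 intensities scaled to a common array median of 33.8. The controls for a bacterial transcript that is absent from bone reached 8.34, and a signal at or below that level is called background here. Differences are skull minus limb on the log2 scale, with signals below 2.51 raised to that floor. A probe set is called when its limma adjusted p is below 0.05 and its difference is at least 1 (2-fold).

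BMPs are secreted as dimers and bind pairs of serine/threonine kinase receptors, which phosphorylate Smad transcription factors. They were found through their ability to induce bone. Noggin, chordin and gremlin bind the ligands outside the cell and keep them from their receptors, and Bmper, a relative of chordin, can hinder or help signalling. Bmp3 stands apart among the ligands, since it opposes the osteogenic members.

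Of the 15 probe sets, 4 had a call toward the skull (Bmp3, Nog, Bmper and Bmp6) and 1 a call toward the limb (Bmp5). Over all probe sets 2.89% were called higher and 3.36% lower, 6.24% together. Bmp3 was 3.42-fold and Nog 2.63-fold higher in the skull. With 16 added to each signal the call of Nog ended (log2 difference 0.93), while that of Bmp3 held (1.64). Bmper was higher by 2.11 and Bmp5 differed by -2.22 on the log2 scale, but their dimmer site was at background on 3 of 5 limb and 2 of 4 skull arrays, and with 16 added to each signal the differences were 1.11 and -1.07. No fold is given for them, or for Bmp6, whose call rests on signals near background. Bmp2, Bmp4, Chrd and Bmp6, by their brightest probe sets, differed in the same direction as Bmp3 and passed the adjusted p without reaching 2-fold. Bmp2 and Bmp4 passed it under all 18 alternative settings, whereas Chrd missed it under 5 (highest adjusted p 0.0933) and Bmp6 under 12 (highest 0.139). In whole bone, fewer cells of a type and less RNA per cell cannot be told apart. Bmp7 and Grem1 were not called and their skull and limb signals overlapped. The median difference was 0.62 over the 15 probe sets and 0.69 over the 10 genes by their brightest probe set, beside -0.01 over all probe sets and -0.02 over all genes.

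**Figure D1:**
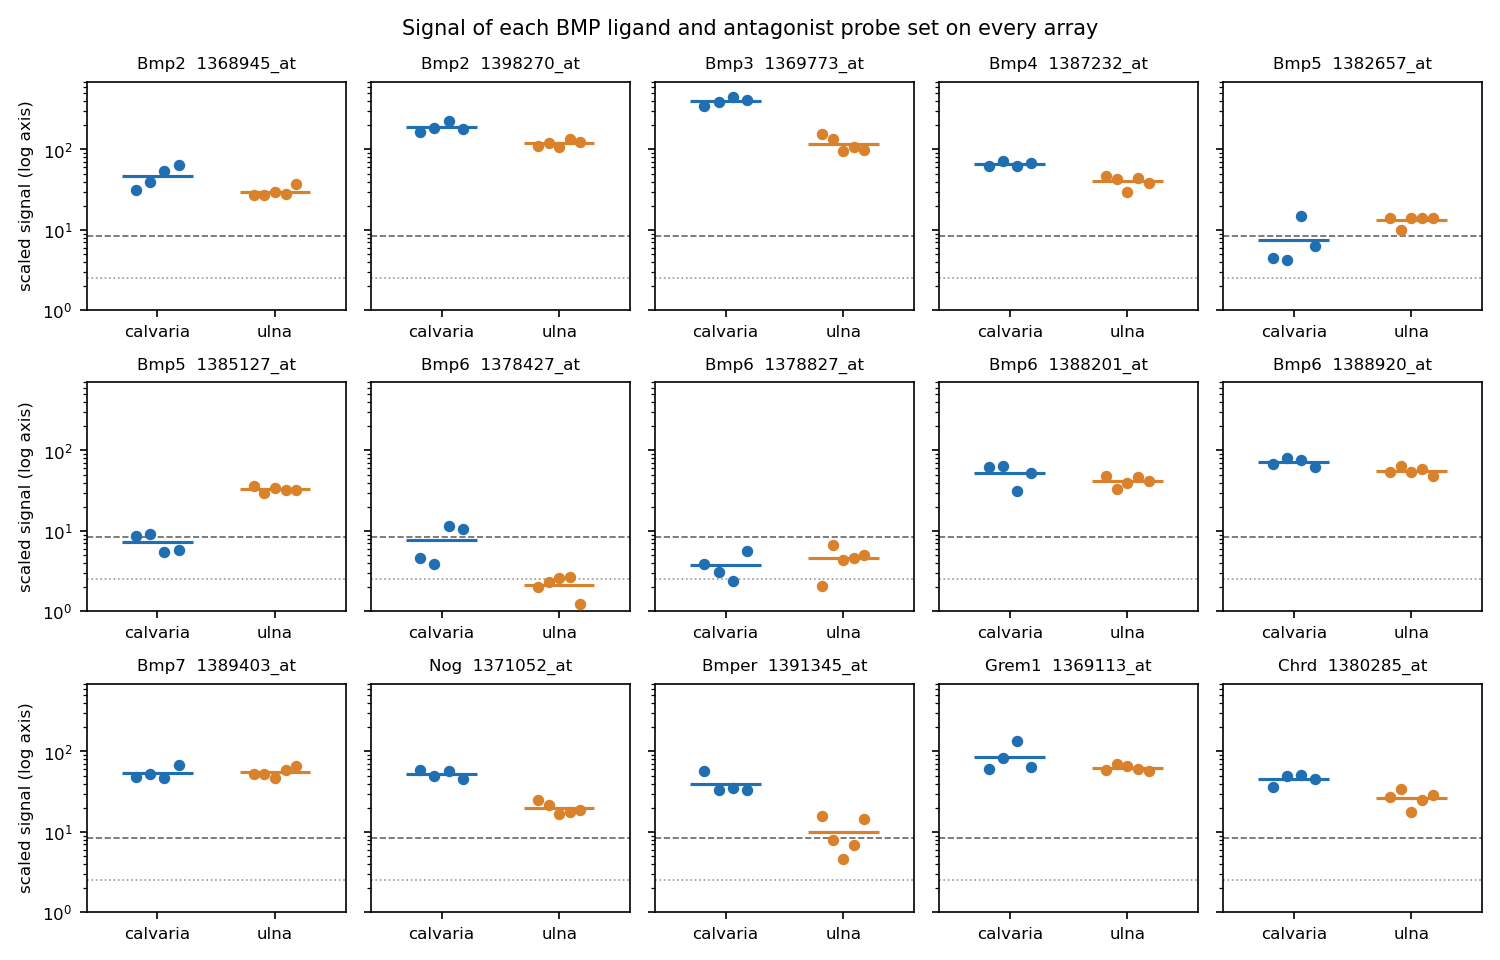
Scaled signal (log axis) of the 15 probe sets on every array. Blue points are calvaria (skull) arrays and orange points ulna (limb) arrays, bars are means, the dashed line is the background level of 8.34 and the dotted line the floor of 2.51. All skull arrays of Bmp3, Nog and Bmper lie above all limb arrays, and those of Bmp5 1385127_at lie below.

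The start regions of Bmp3, Nog, Bmper and Bmp5 are shown because these 4 genes carry the calls in which all arrays of one site were above background. Each sequence runs from 250 bases before the annotated start to 50 after it, 5′ to 3′ on the strand of the gene, as RefSeq gives it for the GRCr8 build. The region of Bmp3 is chr14:11041233-11041532 on the minus strand, that of Nog chr10:74627452-74627751 on the minus strand, that of Bmper chr8:30007916-30008215 on the plus strand and that of Bmp5 chr8:85397379-85397678 on the plus strand. Capitals mark 4 motifs searched on both strands, the Smad-type GGCGCC, the RUNX core TGNGGT, the homeodomain-type TAATTA and the GC box GGGCGG.
Bmp3: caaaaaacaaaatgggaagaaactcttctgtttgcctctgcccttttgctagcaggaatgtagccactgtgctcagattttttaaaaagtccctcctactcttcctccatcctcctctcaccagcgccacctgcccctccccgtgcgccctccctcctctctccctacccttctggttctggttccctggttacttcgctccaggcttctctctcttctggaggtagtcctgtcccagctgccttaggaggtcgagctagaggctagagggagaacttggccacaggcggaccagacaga
Nog: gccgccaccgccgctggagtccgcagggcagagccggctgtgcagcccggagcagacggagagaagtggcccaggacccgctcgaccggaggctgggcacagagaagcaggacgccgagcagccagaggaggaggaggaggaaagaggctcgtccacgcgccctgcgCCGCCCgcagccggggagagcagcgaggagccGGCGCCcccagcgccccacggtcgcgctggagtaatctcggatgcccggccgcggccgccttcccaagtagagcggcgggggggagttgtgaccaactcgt
Bmper: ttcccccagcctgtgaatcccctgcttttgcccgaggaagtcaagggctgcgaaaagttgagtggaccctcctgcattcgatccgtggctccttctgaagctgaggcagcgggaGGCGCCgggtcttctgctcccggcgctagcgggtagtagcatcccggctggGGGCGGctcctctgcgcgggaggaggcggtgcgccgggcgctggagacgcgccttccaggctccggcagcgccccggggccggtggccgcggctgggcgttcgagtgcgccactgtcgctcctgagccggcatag
Bmp5: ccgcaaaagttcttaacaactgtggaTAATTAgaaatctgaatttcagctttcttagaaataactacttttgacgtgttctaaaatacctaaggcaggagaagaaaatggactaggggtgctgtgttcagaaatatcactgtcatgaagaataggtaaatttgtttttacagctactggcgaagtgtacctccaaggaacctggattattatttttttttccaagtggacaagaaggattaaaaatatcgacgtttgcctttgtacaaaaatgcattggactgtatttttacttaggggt
Nog and Bmper each held 1 GGCGCC and 1 GC box, Bmp5 held 1 TAATTA, and Bmp3 held none of the 4. Among all 33469 promoters of this length 11.0% held GGCGCC, 33.1% a GC box, 47.1% TGNGGT and 5.36% TAATTA. The regions of Nog and Bmper were rich in G and C, at 73.0% and 70.0%, that of Bmp3 had 54.7% and that of Bmp5 35.3%, against a median of 51.7%. The Bmp5 region was poorer in G and C than all but 5.29% of promoters. A promoter sequence was found for 8 of the 10 genes. These matches describe the letters of the window and were not compared with binding data.

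Among the ligands Bmp2 to Bmp7, the atypical Bmp3 was the one with a call toward the skull that lay wholly above background. Its signal was 352, 391, 444 and 410.3 on calvaria 1 to 4 and 155, 134, 96.0, 107 and 99.3 on ulna 1 to 5. Every skull array exceeded every limb array, and ulna 1 and 2 were the highest of the limb. Means were 399 ± 38.5 (SD, n = 4) for skull and 118 ± 25.2 (n = 5) for limb, a log2 difference of 1.78 ± 0.15 SE (limma adjusted p = 7.65e-05). The difference lay between 1.64 and 1.88 under every alternative setting tried.

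Bmp5, a ligand of the group that also holds Bmp6 and Bmp7 and is needed for the normal shape of skeletal elements, had the opposite direction. The brighter of its probe sets, 1385127_at, read 8.57, 9.22, 5.43 and 5.75 on the skull arrays and 35.9, 30.0, 34.3, 32.2 and 31.9 on the limb arrays. The limb arrays were closely grouped, and the skull arrays lay around background, with calvaria 3 and calvaria 4 below it. The means were 7.24 ± 1.93 (SD, n = 4) and 32.8 ± 2.29 (n = 5), a log2 difference of -2.22 ± 0.22 SE (limma adjusted p = 0.000174). Because the skull signal is near background, the size depends on how low signals are treated. The difference was -1.07 when 16 was added to each signal in place of the floor, and the call held.

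The other Bmp5 probe set, 1382657_at, was dimmer, at 4.47, 4.29, 14.9 and 6.26 in the skull and 14.2, 9.92, 14.0, 14.2 and 13.9 in the limb. Calvaria 3 had the highest signal of all 9 arrays, while the other three skull arrays were at background and below all limb arrays. With all arrays it was not called (log2 difference -1.01 ± 0.38 SE, limma adjusted p = 0.0954). Without calvaria 3 it was called, with a difference of -1.41 (limma adjusted p = 0.00515). Under 17 of the 18 alternatives it missed the adjusted p (highest 0.37). Its difference was -0.25 with the floor at the 25th percentile and -0.34 with 16 added to each signal. On calvaria 3 the brighter probe set showed no such excess, since its 5.43 was the lowest value of that probe set.

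Bmp2, a strong inducer of bone formation, was read by a bright and a dim probe set. The bright one, 1398270_at, gave 167, 184, 226 and 179 in the skull and 109.9, 120.3, 106, 134 and 125 in the limb. The sites did not overlap, and the difference of 0.66 ± 0.10 SE had a limma adjusted p of 0.00172, at 1.58-fold. The dim one, 1368945_at, gave 31.5, 39.1, 53.8 and 64.2 in the skull and 27.5, 26.9, 29.6, 27.7 and 37.2 in the limb. Its difference was of like size (0.62 ± 0.22 SE), but calvaria 1 lay below ulna 5 and the test was not passed (limma adjusted p = 0.0819).

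Bmp4, the closest relative of Bmp2, gave 62.2, 71.2, 61.5 and 68.4 in the skull and 47.2, 42.7, 29.4, 44.5 and 37.8 in the limb. All skull arrays exceeded all limb arrays. The difference was 0.72 ± 0.15 SE, or 1.65-fold (limma adjusted p = 0.00740), so that Bmp4 passed the adjusted p and stayed under the 2-fold threshold.

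The 4 probe sets of Bmp6 did not give a single picture. The brightest, 1388920_at, had means of 72.0 ± 7.84 (SD, n = 4) for skull and 56.1 ± 5.78 (n = 5) for limb, a difference of 0.36 ± 0.11 SE (limma adjusted p = 0.0465, and 0.0159 to 0.139 over the alternatives), and the sites overlapped. The next, 1388201_at, differed by 0.28 ± 0.23 SE (limma adjusted p = 0.463), and calvaria 3 had its lowest signal (31.1). The third, 1378427_at, was the one called, at 1.42 ± 0.33 SE (limma adjusted p = 0.0145). It read 4.60, 3.88, 11.5 and 10.5 in the skull and 1.995, 2.32, 2.57, 2.67 and 1.23 in the limb. All limb arrays and calvaria 1 and calvaria 2 were at background, so no fold is given for it. Its call ended with the floor at the 25th percentile of all signals (0.07) and with 16 added to each signal (0.37). The fourth, 1378827_at, was at background on all 9 arrays. Bmp6 was therefore not called on its brightest probe set, or on the mean of its probe sets (0.44, limma adjusted p = 0.0819).

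Bmp7, which like Bmp6 can induce bone, was the ligand with the smallest difference on the arrays. Its signal ran from 47.3 to 67.7 in the skull and from 46.5 to 66.2 in the limb. The ranges coincided almost fully, and the difference was -0.04 with a 95% interval from -0.37 to 0.28 (limma adjusted p = 0.890). Its sign turned with the scaling, at 0.01 for the signals as deposited. A difference of 2-fold in either direction lies outside that interval.

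**Figure D2:**
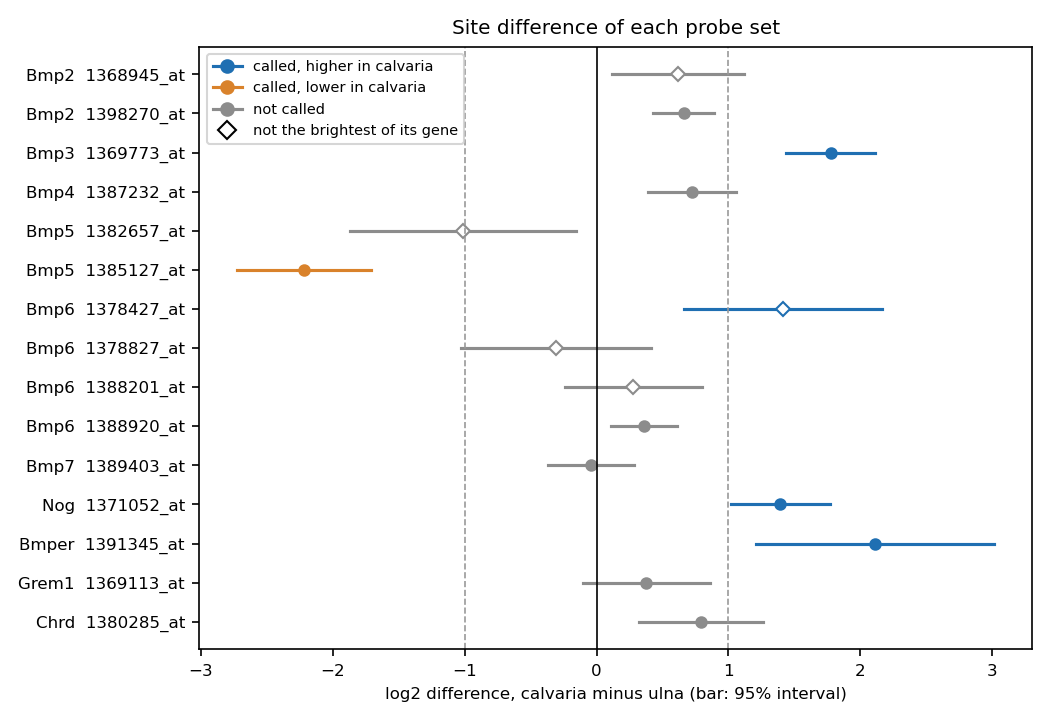
Log2 difference (skull minus limb) of the 15 probe sets with 95% intervals from limma. Blue marks those called higher in the skull, orange that called lower, grey the others, and open diamonds probe sets that are not the brightest of their gene. Bmper (2.11) and Bmp3 (1.78) lie to the right and Bmp5 1385127_at (-2.22) to the left. The order of Bmper and Bmp3 turned with 16 added to each signal (1.11 and 1.64) and with the floor at the 25th percentile (1.71 and 1.78).

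Among the antagonists, Nog and Bmper were called higher in the skull. Nog, whose product binds Bmp2, Bmp4 and Bmp7 and is needed for joints, gave 58.6, 49.5, 57.6 and 45.1 in the skull and 25.1, 21.8, 16.9, 17.9 and 18.9 in the limb. The sites were well apart, and all 9 signals were above background. The means were 52.7 ± 6.51 (SD, n = 4) and 20.1 ± 3.35 (n = 5), a log2 difference of 1.40 ± 0.17 SE (limma adjusted p = 0.000429). With 16 added to each signal the difference was 0.93, under the 2-fold threshold, with an adjusted p of 0.000115.

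Bmper, the relative of the fly gene crossveinless 2, gave 57.4, 33.0, 35.5 and 33.4 in the skull and 15.6, 7.95, 4.61, 6.87 and 14.6 in the limb. Calvaria 1 stood above the other skull arrays, and ulna 2, 3 and 4 were at background while ulna 1 and 5 were above it. The means were 39.8 ± 11.8 (SD, n = 4) and 9.92 ± 4.88 (n = 5), with a log2 difference of 2.11 ± 0.40 SE (limma adjusted p = 0.00494). The size of this difference is uncertain because of the dim limb signals, and it was 1.11 with 16 added to each signal. Without calvaria 1 the call held. The limb spread of Bmper, an SD of 0.75 on the log2 scale, was the widest of all limb spreads among the 15 probe sets.

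Chrd, the antagonist that is cut by the protease Bmp1, gave 36.1, 50.04, 51.7 and 45.2 in the skull and 27.2, 34.4, 17.9, 25.2 and 29.1 in the limb. The lowest skull array lay just above the highest limb array. The difference was 0.79 ± 0.21 SE, or 1.73-fold (limma adjusted p = 0.0247), below the 2-fold threshold. The adjusted p was missed with the replicate block (0.0933) and without calvaria 2 (0.0709), calvaria 3 (0.0710), calvaria 4 (0.0551) or ulna 4 (0.0526). Grem1, an antagonist of Bmp2 and Bmp4 that acts in limb outgrowth, gave 61.3, 82.0, 133 and 65.0 in the skull and 59.3, 70.9, 66.1, 60.2 and 56.9 in the limb. Calvaria 3 had a signal far above the others, and the rest of the skull arrays lay within or near the limb range. The difference was 0.38 ± 0.21 SE (limma adjusted p = 0.272), and 0.14 without calvaria 3.

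Counted without regard to size, 8 of the 15 probe sets passed the adjusted p with a higher skull level, against 9.59% of all probe sets, and 1 with a lower level, against 11.9% (21.5% together). The sites did not overlap for 7 probe sets with the skull above, against 9.53% of all probe sets, and for 1 with the skull below, against 11.8% (21.3% together). Both counts toward the skull include Bmp6 1378427_at, which was at background on all limb arrays and on calvaria 1 and calvaria 2. Of the 10 genes, 3 had a call toward the skull and 1 toward the limb by their brightest probe set, where 3.47% and 4.31% of all genes did (7.79% together). With any probe set counted, 5 of the 10 had a call, against 8.71% of all genes, which have fewer or more probe sets each.

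Within the limb, ulna 3 had the lowest signal of the 5 arrays for 7 of the 10 genes by their brightest probe set, namely Bmp2, Bmp3, Bmp4, Bmp7, Nog, Bmper and Chrd. It was the lowest limb array for 21.2% of all probe sets. Ulna 1 had the highest limb signal for 5 of the 10, namely Bmp3, Bmp4, Bmp5, Nog and Bmper, and for 20.2% of all probe sets. Among the marker lists, the osteocyte list was also lowest on ulna 3 (mean log2 signal 7.57, against 7.69 to 7.98 on the other limb arrays). The osteoblast list was not (9.79, against 9.72 on ulna 5), and the skeletal muscle list ranged from 7.81 on ulna 5 to 9.21 on ulna 1, with 8.22 on ulna 3. The neutrophil list (10.7) and the chondrocyte list (4.86) had their highest limb values on ulna 3. The part of cell make-up in this pattern was not tested. Within the skull, calvaria 3 was the highest array for 6 of the 15 probe sets and the lowest for 5, near its shares of 30.4% and 23.9% over all probe sets.

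Signals of marker lists for several cell types also differed between the same samples. The list of 19 measured osteoblast genes had a mean log2 signal of 10.5 to 10.8 on the skull arrays and 9.72 to 9.89 on the limb arrays, with 11 genes called higher, none lower and a median difference of 1.06. Its brightest members, Col1a1 and Col1a2, had mean signals of 8006 and 7336 in the skull and 7098 and 6781 in the limb and were not called. Of 12 osteoclast genes 9 were called higher (list means 8.17 to 8.53 and 6.81 to 7.11), and of 9 endothelial genes 1 was called higher and 1 lower, with 7 higher at an adjusted p below 0.05 and no overlap of the list means (7.31 to 7.47 and 6.89 to 7.11). Of 29 skeletal muscle genes 26 were called lower in the skull (3.09 to 3.60 and 7.81 to 9.21), of 14 erythroid genes 11 (8.36 to 9.02 and 9.99 to 10.2) and of 6 neutrophil genes 4. Of 11 chondrocyte genes 2 were called lower, as were 1 of the 10 osteocyte genes, of which 1 was called higher. The osteocyte list lay at 7.74 to 8.39 in the skull and 7.57 to 7.98 in the limb. Acta1, the actin of skeletal muscle, had a mean signal of 11.0 in the skull and 3441 in the limb, whereas the brightest probe set of Myh1, whose x_at type can share probes with other transcripts, was at 601 and 399. The log2 ratio of 3′ to 5′ actin control signals was 0.75 to 1.04 in the skull and 0.57 to 0.86 in the limb. The part of these shifts in the differences of the BMP genes was not tested.

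**Figure D3:**
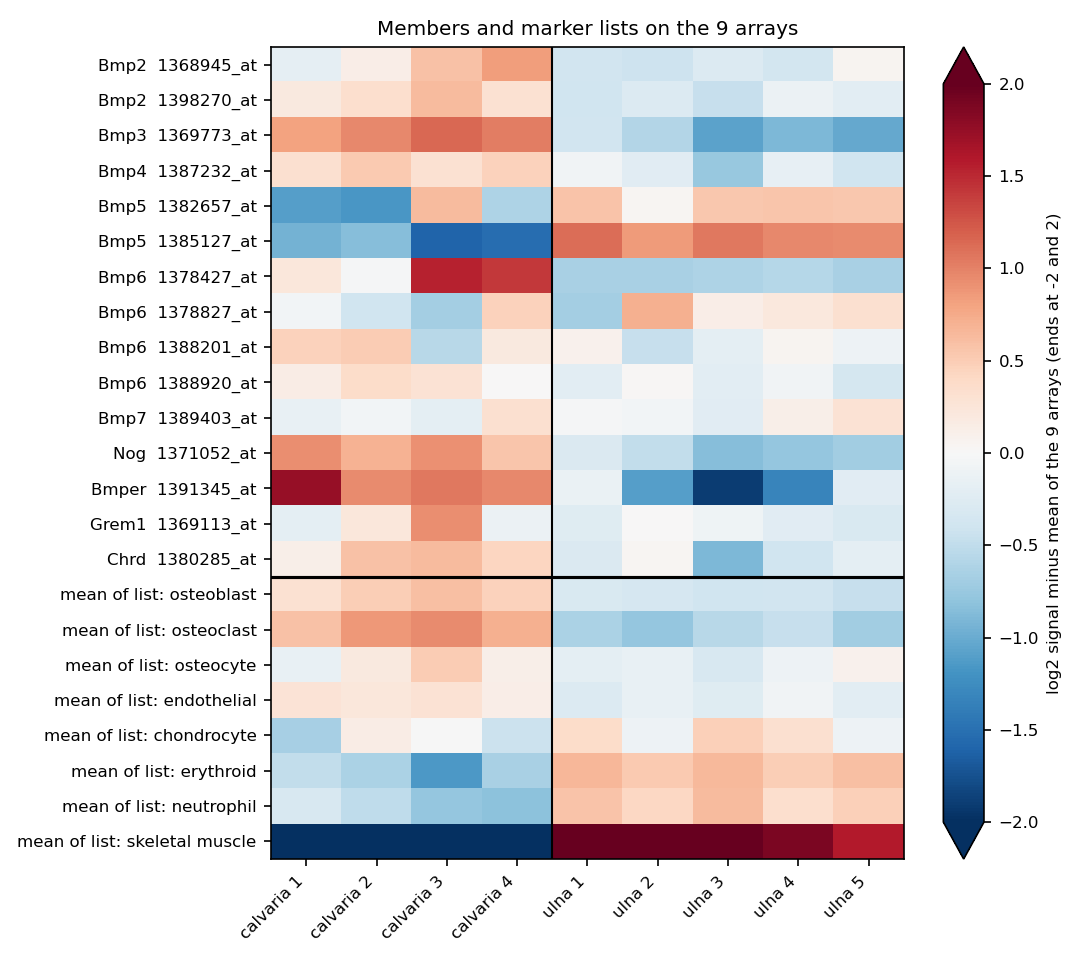
Log2 signal of the 15 probe sets (above the line) and mean log2 signal of 8 marker lists (below it) on each array, minus the mean of the 9 arrays. Red is above and blue below that mean, and colours end at -2 and 2, which the muscle list exceeds. Bmp3, Nog and Bmper share the direction of the osteoblast, osteoclast and endothelial lists, and Bmp5 1385127_at that of the muscle, erythroid and neutrophil lists. The osteocyte and chondrocyte lists overlap between the sites.

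The 3 osteoblast genes with the smallest adjusted p were P3h1 (1.35 ± 0.08 SE), Creb3l1 (1.55 ± 0.10) and Serpinh1 (1.06 ± 0.08), which serve collagen folding and secretion. No difference between these and the BMP genes was tested.

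Of 53 other genes of the BMP pathway measured in 6 lists, each by its brightest probe set, 5 (9.43%) had a call toward the skull and 1 (1.89%) toward the limb, with a median difference of 0.41. Over all genes 3.47% and 4.31% had such calls, or 7.79% together beside 11.3% of the 53. Among 6 other ligands Bmp8a was just past the threshold (115 and 55.2, difference 1.03 ± 0.17 SE, limma adjusted p = 0.00213), and its call ended without calvaria 3 (0.88), without calvaria 4 (0.99), without ulna 2 (0.98), with 16 added to each signal (0.86) and with array weights (0.99). None of 13 other antagonists and modulators was called by limma, although 4 had an unadjusted p below 0.05 and 3 an adjusted p below 0.05, all with the higher level in the skull. The brightest of them, Fstl1 and Smoc2, had differences of 0.79 ± 0.10 and 0.62 ± 0.11 SE. Sost, named after its values were seen, had 2 probe sets, and the brighter was not called (0.19 ± 0.15 SE, limma adjusted p = 0.451). Its other probe set was not counted here, and the authors list Sost among genes higher in the skull. Of 6 proteases that process ligands or antagonists, Bmp1, the protease that cuts chordin and procollagen, was called at 1.35 ± 0.12 SE (472 and 185, limma adjusted p = 0.000101).

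On the receiving side, the ligand-binding receptors Bmpr1a (1.11 ± 0.15 SE) and Bmpr2 (1.31 ± 0.16) were called higher in the skull among 12 receptors and co-receptors. With 16 added to each signal the call of Bmpr1a ended (0.84). Hjv (hemojuvelin), a BMP co-receptor known from skeletal muscle and liver, was called lower, with a mean signal of 5.08 in the skull and 164 in the limb. Its skull signals were at background on 3 of 4 arrays, so the size of its difference (-4.96 ± 0.54 SE, limma adjusted p = 0.000250) is not resolved. None of 8 Smads and Smurfs was called by limma, although 6 had an unadjusted p below 0.05 and 5 an adjusted p below 0.05, all higher in the skull. The brightest of the list were Smad4 (0.12 ± 0.09 SE, limma adjusted p = 0.431) and Smad1 (0.59 ± 0.08 SE, limma adjusted p = 0.000655). Of 8 target genes the homeobox gene Dlx5 was called (1.15 ± 0.15 SE). The general BMP targets Id1 (0.22 ± 0.19), Id2 (0.09 ± 0.15) and Id3 (0.49 ± 0.17), chosen after their values were seen, were not called.

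**Figure D4:**
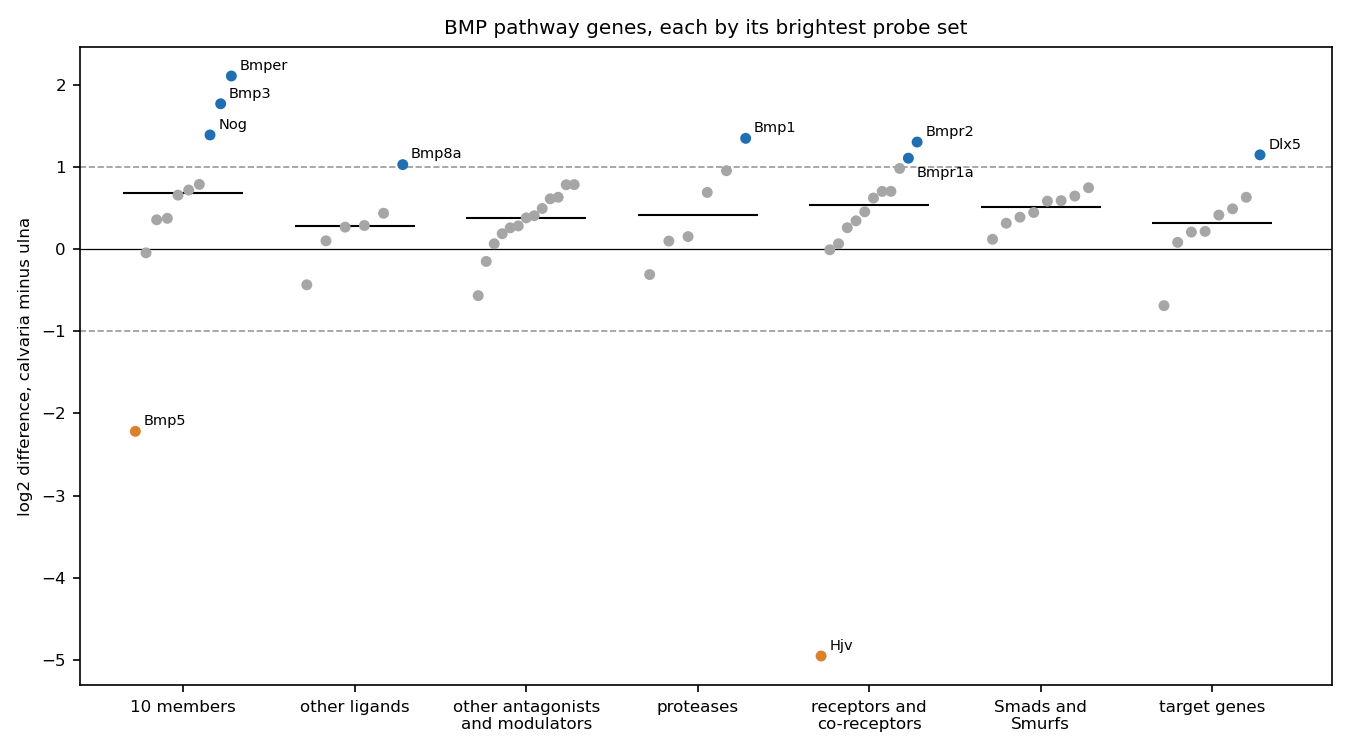
Log2 difference (skull minus limb) of the 10 genes and of 53 other BMP pathway genes in 6 lists, each by its brightest probe set. Blue and orange mark genes called higher and lower in the skull, grey those not called, bars the list medians and dashed lines the 2-fold threshold. Most points lie between 0 and 1, with Bmp5 (-2.22) and Hjv (-4.96) far below.

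The genes whose profile over the 9 arrays was most like that of each called probe set were sought among at least 12442 probe sets naming another gene with a signal at or above the median. Likeness was the mean absolute difference of the centred log2 signals, a measure that the site difference dominates. Nearest to Bmp3 were the cell cycle gene Ccnd1 (0.12), Cgref1 (0.12) and Steap4 (0.13). Nearest to Nog were Cdc42ep5, Sec24d and Lpar1 (0.10 to 0.11), and Sec24d belongs to the coat of secretory vesicles. Bmp5 lay nearest to Mmrn1 (0.08), Pla2g2a (0.10) and Urah (0.11), and Mmrn1 is a protein of platelets and endothelium. For Bmper the nearest genes were less alike, at 0.42 for Igfbp5, Slc8a3 and Tnfrsf11b, the last of them osteoprotegerin, the decoy receptor that restrains osteoclasts. For the dim Bmp6 probe set they were Rcan2, Steap2 and Larp6 (0.23 each).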

How the data were processed

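Basal expression was measured in 4 skull (calvaria) and 5 limb (ulna) RNA pools on Affymetrix rat whole-genome GeneChips after one-cycle labelling. The authors deposited intensities, namely linear MAS5 signals of every probe set, scaled to a common trimmed mean (100.027 to 100.03 after removal of both extremes). The version of the array software is not given in the sources used here. Array medians were 33.0 to 36.6. Arrays give no counts, and their number limits the precision.

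Gene names came from the annotation of the platform and were updated by gene identifier to RefSeq symbols (20758 of 20826 probe sets with 1 symbol matched). Signals were divided by the array median, multiplied by the mean of the medians, floored at the 10th percentile (2.51) and taken to log2. Skull and limb were compared by limma 3.58.1 under R 4.3.3 (lmFit, eBayes with intensity trend), with Benjamini-Hochberg adjustment over the 31042 probe sets that were not among the 57 controls. The code was tested on simulated data. Intervals are 95% intervals from limma. Lists used the brightest probe set of each gene, and 53 of 68 other pathway genes were measured. The named genes were all 10 genes, called genes of the pathway lists (or the 2 brightest where none was called), the brightest marker genes with the 3 osteoblast genes of smallest adjusted p, and the 3 nearest profiles. The 10 genes, the lists and the rules were chosen with earlier results of these data known. Alternatives were other scalings, floors, filters, weights and tests, a replicate block and each array left out. P-values measure only the spread between these RNA pools.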

Additional observations from a re-analysis of the deposited data

Results flagged for a closer look

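In 3 of the 30 sets of arrays tested (15 probe sets at each site), 1 array lay farther from the rest than Dixon's 95% critical value allows, and chance gives about 1 in 20. For Bmper the skull signal of calvaria 1 (57.4) stood above the others (33.0 to 35.5), with a gap of 0.898 of the range of the skull arrays. For Bmp5 1382657_at ulna 2 (9.92) lay below the other limb arrays (13.9 to 14.2), with a gap of 0.937 of the range. For Bmp2 1368945_at ulna 5 (37.2) lay above the other limb arrays (26.9 to 29.6), with a gap of 0.739.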

How the results depend on the processing

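Differences of the 15 probe sets were recomputed under 9 other settings and with each array left out. Of the resulting 268 values 257 kept their direction and their side of the 2-fold call, and 1 (Bmp6 1378827_at with the floor at the 25th percentile) was exactly 0. This count does not follow the adjusted p alone, which Chrd missed under 5 and Bmp6 1388920_at under 12 of 18 alternatives. With 16 added to each signal 2 probe sets and 2 genes (Bmp3 and Bmper) were called higher, in place of 4, and 3 other pathway genes, in place of 5. This setting compresses dim signals and called 1032 probe sets in all, against 1938. The count of other pathway genes called higher rose to 7 with the signals as deposited and to 7 with quantile normalization. With 1 array left out, 4 members were always called higher, 1 to 2 member probe sets lower (2 without calvaria 3, through Bmp5 1382657_at) and 4 to 6 other pathway genes higher. The difference of Bmp7, -0.04, was 0.013 with the signals as deposited, 0.025 with the replicate block and -0.157 to 0.025 with 1 array left out, above 0 without calvaria 1, calvaria 3 or ulna 5. It was called under none of these. The methods' plain test gave 4 member probe sets higher and 1 lower. It called none of the other antagonists, Smads and Smurfs by their brightest probe sets. The filter on low signals removed Bmp6 1378427_at and 1378827_at.

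With the site mean of each probe set removed, arrays of equal number had correlations over probe sets of 0.0384, -0.0100, -0.00922 and 0.0433. Those of calvaria 1 with ulna 1 and of calvaria 4 with ulna 4 were the highest between any skull and limb array. Calvaria 2 and calvaria 3 correlated best with limb arrays of another number. Values so near 0 cannot decide whether arrays of equal number share a group of rats. Since the sharing is not stated, the arrays were not treated as pairs. With the replicate number as a block, which leaves out ulna 5, 3 member probe sets were called higher and 1 lower, and 1571 of all probe sets were called. Bmp6 1378427_at lost its call there (1.41, limma adjusted p = 0.0581). Signals at background limit the size of the differences of Bmp5, Bmp6 and Bmper.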
